A study of Mus musculus with 8 samples.

Results

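The nuclear-encoded genes of mitochondrial respiration, of the mitochondrial ribosome (mitoribosome) and of mitochondrial protein import were followed through m6A peak lists of mouse embryonic fibroblasts (MEFs). They were taken by name, as every gene in the lists whose name starts with Nduf, Uqcr, Atp5, Mrpl, Mrps, Timm or Tomm, or with Cox and a digit, and are called member genes here. The lists held 121 such names with 252 peaks, out of 9779 names and 38705 peaks in all. Of the 121 names, 2 were pseudogenes (Atp5l-ps1 and Mrps36-ps1), which left 119 coding genes with a peak out of 207 annotated ones. The MEFs were wild-type C57BL/6 cells at passage 5 to 6, isolated from embryos at day 13.5 after coitum, and were either left untreated (control) or kept in nutrient-deprived medium for 2 h (starved). Both groups shared strain, genotype and culture. MeRIP-seq, in which RNA fragments bound by an antibody against N6-methyladenosine (m6A) are sequenced as an IP library beside an input library, was done on 2 replicates per group, and the 4 IP libraries had a peak list each. The study calls the replicates biological, and the labels do not say whether they came from separate embryos or cultures.

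Respiration runs on protein complexes of the inner mitochondrial membrane. Complex I, III and IV pass electrons to oxygen and pump protons, and complex V, the ATP synthase, uses the proton gradient to make ATP. A few of their subunits are made inside the organelle by the mitoribosome, but all mitoribosomal proteins and most respiratory subunits are encoded in the nucleus, translated in the cytosol and imported through the TOM complex of the outer and the TIM complexes of the inner membrane. m6A is placed by a nuclear methyltransferase mostly within a short sequence context centred on GGAC, and is known for its concentration near stop codons and in long exons.

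The lists held 10103 and 9871 peaks in the control libraries, against 9757 and 8974 after starvation. They gave no reads, so neither sequencing depth nor RNA level could be read from them, and a gene without m6A cannot be told from one with too little RNA or coverage for a peak. Of 10 fibroblast markers, 8 carried a peak and 4 of them (Pdgfra, Pdgfrb, Twist1 and Prrx1) did so in all 4 libraries, while Col1a1 and Vim had none. Peaks also lay on 2 of 4 epithelial, 1 of 3 blood and 1 of 3 endothelial markers, none of these in all 4 libraries. A peak does not measure the level of its RNA.

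In any single library, the member genes carried peaks about as often as other genes. A peak was listed for 63 and 59 of the 207 coding members under control conditions and for 52 and 60 of them after starvation, or 30.4%, 28.5%, 25.1% and 29.0%. Among all 21900 annotated coding genes the shares were 28.1%, 27.1%, 27% and 25.7%. Over the 4 libraries together, 57.5% of the coding members had a peak at least once, against 42.7% of all coding genes. The difference lay in how often names were listed in all 4 libraries or in 1 only. A peak in all 4 libraries was found for 7 of the 121 member names (5.79%), against 29.2% of all names with a peak, and 50 member names (41.3%) were listed in 1 library only, against 27.9% of all names. A further 34 member names (28.1%) were listed in 2 libraries and 30 (24.8%) in 3, against 22.2% and 20.6% of all names.

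Families were assigned by gene name alone, so a gene can act outside the family it is counted in, as Timmdc1 of the Timm group does. The mitoribosome carried most of the peaks. In its large subunit 36 of 49 genes (73.5%) had a peak, in its small subunit 22 of 29 (75.9%), and these 2 groups together held 5 of the 7 genes found in all 4 libraries. The assembly factors of complex IV, some of which serve the supply of its copper or heme, had peaks on 7 of 9 genes, and those of complex I on 5 of 8.

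The core respiratory subunits were listed less widely. Complex I had a peak on 22 of 41 subunit genes, but 16 of the 22 were listed in 1 library only, and Ndufv3, a subunit of its NADH-binding module, was the one found in all 4. Complex IV had a peak on 6 of 18 subunit genes, with Cox7a2l, a factor in the assembly of respiratory supercomplexes, reaching 3 libraries. Among the conserved core subunits of complex I, Ndufs1, Ndufs7 and Ndufs8, which carry iron-sulfur clusters, had no peak in any list. Complex III had a peak on 2 of 8 genes (Uqcr10 and Uqcrq, at a fold enrichment, the ratio of IP to local input at a peak, of 5.00 and 3.56), each in 1 library, and none on Uqcrc1, Uqcrc2 or Uqcrfs1, the Rieske iron-sulfur protein. Complex V, counted as the genes named Atp5, had the lowest share, 3 of 19 (15.8%). Atp5c1, the gamma subunit of the rotor stalk, had 6.11 in control replicate 1 and 17.0 in starved replicate 2. Atp5s and Atp5sl, counted here by name only, were listed in 1 library each. Atp5a1 and Atp5b, whose products form the catalytic head, had no peak in any library.

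Of the import genes, 9 of 16 of the Timm group and 7 of 10 of the Tomm group had a peak under these names, none of them in all 4 libraries. Timm29, which was listed in all 4 under an older name, was counted among the Timm genes without one. Tomm40, the channel of the outer membrane, had 3.14 in control replicate 1, 6.81 in starved replicate 1 and 7.33 in starved replicate 2. Timm23, the channel of the inner membrane, had 7.81 in control replicate 2, 4.45 in starved replicate 1 and 3.41 in starved replicate 2. The receptors Tomm20 (2.36) and Tomm22 (4.47) were listed in control replicate 1 only.

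**Figure D1:**
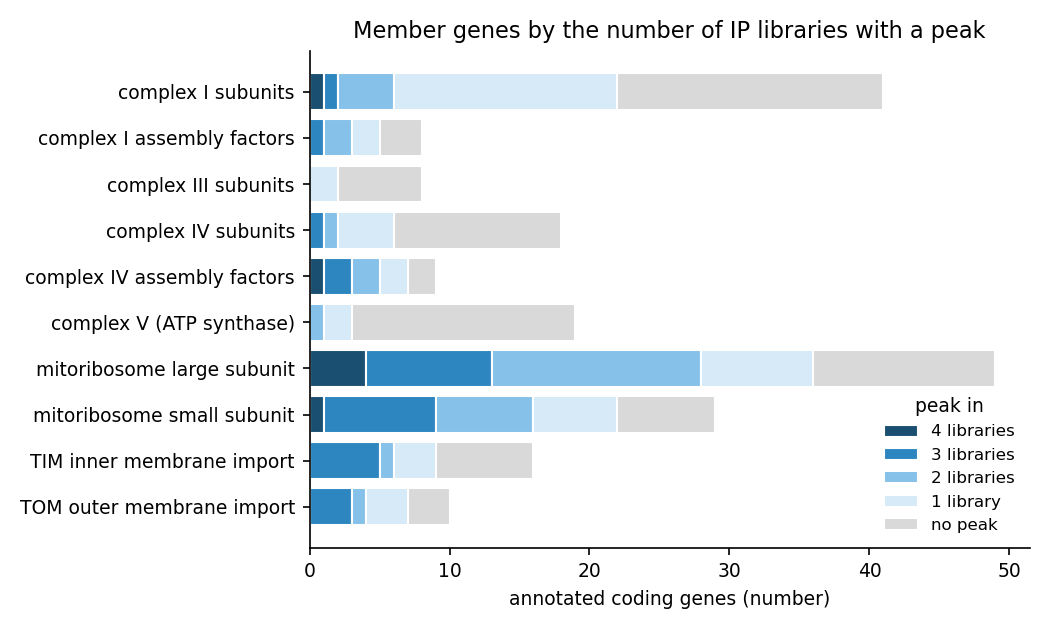
Horizontal stacked bars of the number of annotated coding genes of each family, split by the number of the 4 IP libraries in which a peak was listed for the gene. The mitoribosome subunits have the longest blue bars, the ATP synthase bar is grey for 16 of 19 genes, and only complex I, the complex IV assembly factors and the mitoribosome have genes with a peak in all 4 libraries. Timm29, Mrpl58 and Ndufaf8, listed under older names, count as having no peak.

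The peaks of the member genes were weaker than the usual peak. Fold enrichment had a median over the member peaks of 8.41 and 8.98 under control conditions and of 13.1 and 10.5 after starvation. Over all peaks of the same libraries the medians were 12.2 and 12.3, and 14.6 and 14.7. On the log2 scale the member median stood below the median of all peaks by -0.54 and -0.45 in the controls and by -0.15 and -0.49 in the starved libraries, so it was lower in 4 of 4 libraries. Peaks under 5-fold made up 23.0% of the member peaks and 13.3% of all peaks, and peaks of 20-fold and over made up 20.2% against 36.0%. Peaks placed on a coding transcript were also compared by its length, with the libraries pooled. Under 1000 nt the member median was 7.56 against 9.79 in all peaks, and from 1000 to under 2000 nt 10.175 against 12.04. From 2000 to under 4000 nt it was 12.48 against 12.8, and at 4000 nt and over 11.91 against 13.58. The longest class held 27 of 237 such member peaks and 19590 of 35931 of all. How far length accounts for the lower fold was not tested.

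With the libraries pooled, the assembly factors of complex I had a median of 39.9 over 10 peaks, the highest of the families. These peaks were spread unevenly, with medians of 30.8 (2 peaks) and 43.0 (3 peaks) in the control libraries, 57.5 (5 peaks) in starved replicate 1 and no peak in starved replicate 2. In starved replicate 1 the median of the complex IV subunits was higher, 75.4, but it is the midpoint of 2 unlike peaks, Cox4i2 (145) and Cox7a2l (5.70). Ndufaf1 had 97.1 in control replicate 2 and 82.9 in starved replicate 1, and Ndufaf2 had 24.9 and 43.0 in both control libraries. Pooled medians were 14.1 for the complex IV assembly factors (18 peaks), 12.4 for the small and 9.32 for the large mitoribosomal subunit (52 and 87 peaks), 8.09 for the Timm and 6.52 for the Tomm genes (21 and 14 peaks). The subunits of complex I and complex IV had medians of 6.34 (33 peaks) and 5.08 (9 peaks).

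The median fold of the member peaks was higher in both starved libraries than in both control libraries, as was that of all peaks. The mean of the library medians of log2 fold enrichment was 3.12 ± 0.07 (SD, n = 2) in control and 3.55 ± 0.23 (SD, n = 2) in starved MEFs, a difference of 0.43, and the groups did not overlap. The median of all peaks rose by 0.26 over the same libraries. The member median relative to all peaks then differed by 0.17 between groups, which overlapped. This difference turned negative when peaks were filtered by fold or score or taken in equal number per library. The difference of 0.43 in the member median itself fell to between 0.11 and 0.18 under these filters and with a false discovery rate under 20%. Under each of them the groups overlapped. The score, minus 10 times log10 of the peak's p-value, was 3100 or more (8003 of the 8299 peaks of all lists in this range stood at exactly 3100) for 10.1% and 9.23% of the member peaks in control MEFs, and 23.2% and 16.1% after starvation. Over all peaks it was so for 17.0% and 13.2%, and 28.5% and 27.8%.

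The number of member peaks was 69 and 65 in control MEFs, and 56 and 62 after starvation (67.0 ± 2.83 and 59.0 ± 4.24, SD, n = 2). Their share of all peaks was 0.683% and 0.658% in control MEFs, and 0.574% and 0.691% after starvation, which overlapped. With peaks of a false discovery rate under 20% only, the direction of the count turned, to 29 and 31 in control MEFs, and 37 and 38 after starvation. All peaks under that rate numbered 4595 and 5242 in control MEFs, and 6155 and 5309 after starvation, and the member shares of them overlapped (0.631% and 0.591%, against 0.601% and 0.716%). With 2 libraries against 2, a two-sided exact permutation test cannot give a p under 0.333, so no comparison of the groups by this test could pass 0.05.

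**Figure D2:**
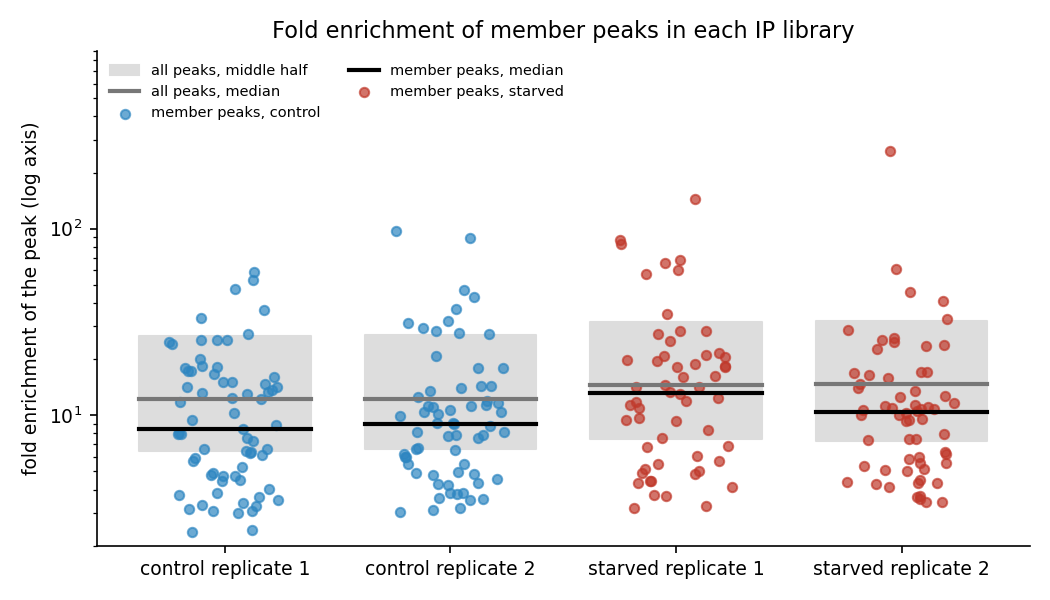
Fold enrichment on a log axis of each member peak (points, blue in control and red in starved libraries) in the 4 IP libraries, with the member median as a black line and, over all peaks of the library, the median as a grey line and the interquartile range as a grey box. The black line is under the grey line in each library, at 8.41 against 12.2 in control replicate 1 and at 13.1 against 14.6 in starved replicate 1, and the highest point is the 260-fold peak named Mrps36-ps1 in starved replicate 2.

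Peaks that overlapped by at least 1 bp were merged into regions, and 147 of 21168 merged regions held a member peak. Of these, 6 (4.08%) had a peak in all 4 libraries, against 10.7% of all merged regions. They lay in Mrpl3, Mrpl40, Mrpl51 and Mrpl54, proteins of the large mitoribosomal subunit, in Mrps23 of the small subunit, and in Cox17, the chaperone that carries copper to complex IV. Each of the 6 held at least 1 GGAC, and the share of all merged regions that did was not computed. The 25 bases around the GGAC nearest to the mean peak centre are shown for these 6 because no other member regions were called in every library. They are 5′ to 3′ in the sense of the transcript, from the GRCm38 (mm10) genome with GENCODE M21 transcripts, and GGAC is in capitals.
Mrpl3: gggtgtggcaGGACtctgtgcttcg
Mrpl40: agatggagagGGACgccatcagatc
Mrpl51: aaggggaacaGGACttatcccagca
Mrpl54: aataccaaagGGACctacagcagcc
Mrps23: tgtttgatgtGGACgaagatcacac
Cox17: agaacactgtGGACatctcattgaa

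The Mrpl3 window (chr9:105077151-105077175, plus strand) and the Mrpl51 window (chr6:125193444-125193468, plus strand) lay just past the stop codon, with the A of GGAC 20 and 39 nt from it. The Cox17 window (chr16:38349259-38349283, plus strand) lay near the end of the coding sequence, at -52 nt. The Mrpl40 window (chr16:18872546-18872570, minus strand) lay in the coding sequence, and those of Mrpl54 (chr10:81264718-81264742, minus strand) and Mrps23 (chr11:88211220-88211244, plus strand) lay in the 3′ UTR. The A was close to the mean peak centre in Mrpl3 and Mrpl51 (-6.25 and -46.3 nt) but farther from it in Mrpl54 (125 nt), Cox17 (-129 nt), Mrpl40 (-179 nt) and Mrps23 (180 nt), which lie outside the 200 nt at the centre that are searched for the motif farther on. A match to these letters does not place the modified base, which peaks of this width do not resolve.

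Of the 6 regions, 3 had folds that did not overlap between the groups. Mrpl51, over the last exon (chr6:125193223-125193899), had 3.01 and 4.34 in control MEFs, and 15.95 and 14.8 after starvation. Both starved values were higher, by 2.09 on the log2 scale, and the scores went from 90.1 and 163 to 3100 and 2825. The merged peaks were centred 112 and 66 nt past the stop codon in control MEFs, and 19 and 144 nt past it after starvation. Mrps23, centred in the 3′ UTR (chr11:88210650-88211428), had 15.0 and 6.19 in control MEFs, and 18.1 and 25.2 after starvation, higher by 1.15. Mrpl40, over its last exon (chr16:18872018-18872662), went the other way, with 24.1 and 11.2 in control MEFs, and 5.51 and 4.14 after starvation. Both starved values were lower, by -1.79 on the log2 scale, and the scores were 3137 and 765 against 65.6 and 87.0. The merged peaks were centred at -50 and 28 nt from the stop codon in control MEFs, and at 9 and -143 nt after starvation. They may therefore not mark the same site. For each of the 3 the two-sided exact permutation p was 0.333, the smallest possible. Over all 2257 such regions, 22.9% had both starved folds above both control folds and 18% had both below, and the counts of 2 and 1 among 6 do not stand apart from those shares. The median difference over all of these regions was 0.10 on the log2 scale.

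The other 3 shared regions overlapped between groups. Cox17, at the stop codon (chr16:38349241-38349523), was the most even in 3 of the libraries, with 27.2 and 28.4 in control and 28.4 in starved replicate 1, and it had 11.2 in starved replicate 2. Mrpl54 (chr10:81264713-81264997) had 7.94 and 7.88 in control MEFs, and 20.7 and 7.46 after starvation. Mrpl3 (chr9:105076993-105077349) had 14.3 and 3.18 in control MEFs, and 6.08 and 45.6 after starvation, the widest spread within both groups. The median gap between replicates of a group, over all shared regions, was 0.77 on the log2 scale.

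Ndufv3 was found in all 4 libraries through 2 places. A peak in an internal coding exon was listed in control replicate 1 (9.43) and starved replicate 2 (40.9), and another at the stop codon in control replicate 2 (9.13), starved replicate 1 (21.7) and starved replicate 2 (7.90). Mrpl3 had the most peaks of any member gene, 7, followed by Cox17 with 6 and Ndufv3 with 5. Cox19, a copper-binding assembly factor of complex IV that was singled out after its values were seen, had the most even folds of the genes in 3 libraries, with 33.3 and 32.0 in control and 32.8 in starved replicate 2, and no peak in starved replicate 1.

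Regions called in both libraries of a group and in neither of the other numbered 10 for control and 4 for starved. The 10 made up 6.80% of the member regions, against 4.15% of all merged regions, and the 4 made up 2.72%, against 3.2%. The control-only regions lay in Mrpl2, Mrpl3, Mrpl14, Mrpl17, Mrpl55, Mrpl57, Mrps2, Mrps33, Ndufaf2 and Cox17. The highest single fold was that of Mrpl3, at a stop codon of a shorter transcript upstream of the shared site (chr9:105075162-105075855), with 17.2 and 47.2. Ndufaf2, an assembly factor of complex I, had 24.9 and 43.0 at its stop codon (chr13:108052589-108052954), the highest mean of the 10 on the log2 scale (5.03, against 4.83 for Mrpl3), with scores of 1872 and 2182. Mrps2 had 12.3 and 14.3, Mrpl17 had 15.1 and 11.4, and Mrpl2 had 13.2 and 10.6. The weakest was Mrpl14, with 4.49 and 3.78. The Cox17 region (chr16:38352445-38352744; 4.80 and 14.0) lay in the last exon of the transcript with 3 exons, and 3271 nt past the stop codon of the transcript with 2 exons, which keeps the sequence between.

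The starved-only regions lay in Mrpl9, Mrpl21, Cox15 and Tomm5. Tomm5, a small subunit of the TOM complex, had 7.56 and 22.8 over its first exon (chr4:45107913-45108114). Mrpl21 had 9.46 and 15.9 at the stop codon of its shorter transcript (chr19:3290977-3291201), and Cox15, which takes part in heme A synthesis, had 11.9 and 12.5 in its 3′ UTR (chr19:43735956-43736852). Mrpl9 was weakest, with 4.46 and 9.47 and scores of 79.4 and 489. Absence from a list is not a measured loss, since a peak just under the caller's threshold is not listed. When only peaks of at least 4-fold were kept, the starved-only count went from 4 to 7, or 5.26% of the member regions against 3.36% of all regions, where it had been 2.72% against 3.2%.

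GGAC was found in 9 of the 10 control-only and 2 of the 4 starved-only regions, and not in those of Mrpl9, Mrpl21 and the second Cox17 region. These regions ran from 202 bp (Tomm5) to 1398 bp (Mrps2) in length, and the share over all merged regions was not computed. The counts therefore do not compare the groups. Windows are shown in the same way for the strongest 2 control-only regions and for the 2 starved-only regions that held the motif.
Mrpl3, control only: ctctgtgcctGGACataaaaattgc
Ndufaf2, control only: ccagggtcctGGACgccagaagatg
Cox15, starved only: gatgggcactGGACcacgaacatta
Tomm5, starved only: cgcccaagttGGACccggaggagat

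These windows lie at chr9:105075206-105075230 (plus strand), chr13:108052726-108052750 (minus strand), chr19:43736557-43736581 (minus strand) and chr4:45107987-45108011 (minus strand), in that order. The A of GGAC was at -40 and -30 nt from the stop codon in Mrpl3 and Ndufaf2, in the 3′ UTR of Cox15 and in the coding sequence of Tomm5. It was 33 and 14 nt from the mean peak centre in Ndufaf2 and Tomm5, but -183 and -141 nt from it in Mrpl3 and Cox15.

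When peaks were counted per gene at any place, 8 genes were listed in both control and neither starved library (6.61% of the member names, against 4.56% of all names) and 6 in both starved and neither control library (4.96%, against 3.19%). The control-only genes were Mrpl2, Mrpl14, Mrpl17, Mrpl38, Mrpl57, Mrps2, Mrps33 and Ndufaf2. The starved-only genes were Mrpl9, Mrpl21, Mrpl28, Mrps31, Cox15 and Tomm5. Cox17, Mrpl3 and Mrpl55 had a control-only region but peaks elsewhere in starved libraries.

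**Figure D3:**
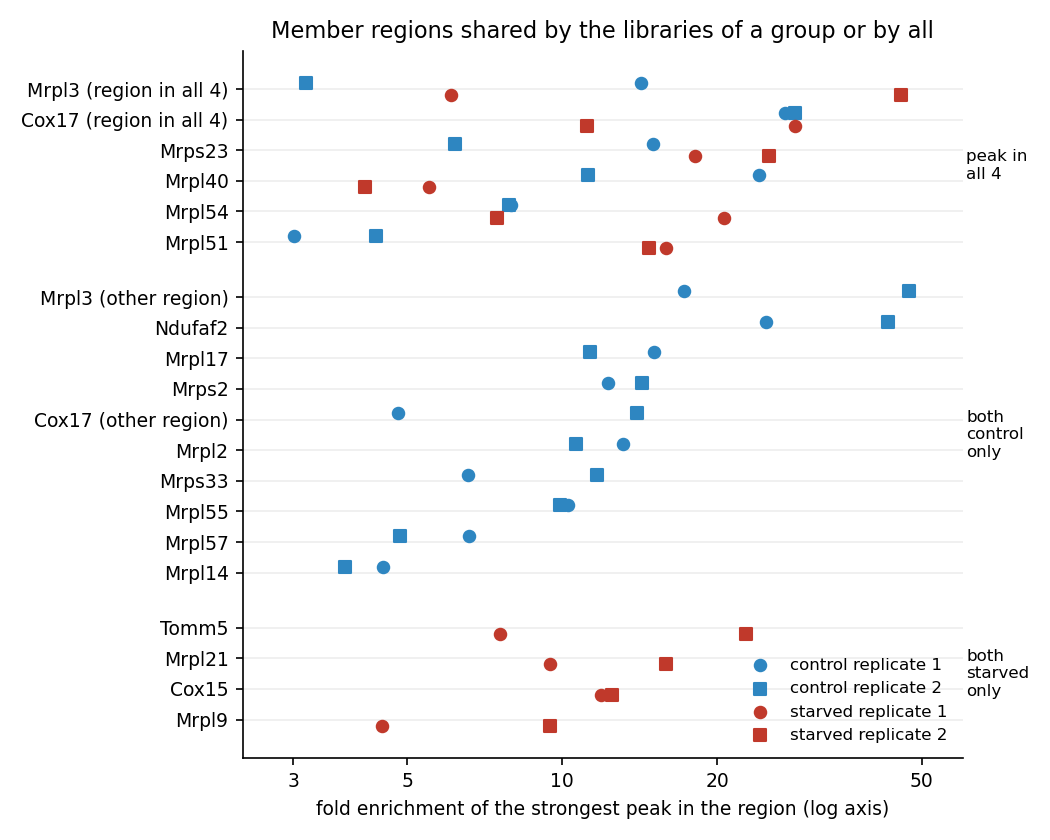
Fold enrichment on a log axis of the strongest peak per library (blue for control, red for starved, circles for replicate 1, squares for replicate 2) in the 6 member regions shared by the 4 libraries, in 10 found in both control libraries only and in 4 found in both starved libraries only. In the top block the red points lie to the right of the blue ones for Mrpl51 and Mrps23 and to the left for Mrpl40, and the colours overlap for Mrpl3, Cox17 and Mrpl54.

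Several of the strongest member peaks were listed in a single library. Of the 80 member regions found in 1 library, the 5 with the highest fold were Mrps36-ps1 (260, starved replicate 2), Cox4i2 (145, starved replicate 1), Mrps34 (89.0, control replicate 2), Mrps31 (86.8, starved replicate 1) and Ndufaf1 (67.9, starved replicate 1). Mrps36-ps1 is a pseudogene, and how far its reads are shared with Mrps36, which had a peak of 28.7 in the same library, was not tested. Neither its peak nor that of Mrps31 had its centre in an annotated exon. Cox4i2, an alternative form of subunit 4 of complex IV, had its peak at the stop codon (chr2:152764745-152764953). Member peaks of 20-fold and over were seen in another library in 60.8% of cases, against 69.0% of all peaks that strong, whereas under 5-fold the shares were 69.0% and 64.6%. A peak in all 4 libraries was found for 13.7% of the member peaks of 20-fold and over, against 31.8% of all such peaks, and for 6.90% against 15.0% under 5-fold, and the share was lower in the members in the classes between as well (9.23% against 21.7% from 5 to 10-fold and 8.97% against 26.8% from 10 to 20-fold).

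The centre of the peak was placed on a coding transcript of the named gene for 237 of the 252 member peaks. Of the other 15, 3 had their centre in an exon of another gene only: Cox11 in control replicate 1, which fell in Tom1l1, and Timm10b in control replicate 1 and starved replicate 2, which fell in Dnhd1 at 53.0 and 60.8-fold. These names are uncertain. A further 7 member peaks had their centre in exons of more than 1 gene.

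The member peaks gathered at the stop codon. Within 100 nt of it lay 48.4% and 54.8% of the placed member peaks in control MEFs, and 43.4% and 50.0% after starvation, against 13.0%, 12.4%, 12.2% and 12.6% of all placed peaks. Member transcripts are short, so this window takes up more of them. Under uniform placement along each transcript the member shares would have been 14.0%, 15.6%, 15.2% and 17.3%, and those of all peaks from 5.75% to 5.82%. The observed share was thus 3.45 and 3.51 times the uniform one in control and 2.85 and 2.89 times in starved libraries for the members, which did not overlap, and from 2.12 to 2.23 times for all peaks. The excess was present in each class of transcript length, at 2.49 times for transcripts under 1000 nt (all peaks, 1.88) and 6.65 times for those of 2000 to under 4000 nt (all peaks, 2.14).

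By family, 49 of 84 placed peaks of the large mitoribosomal subunit and 18 of 32 of the complex I subunits lay in the stop codon window. The Tomm peaks did not, with 0 of 13 in the window and 10 in the 3′ UTR beyond it. The median of the 13 was 196 nt past the stop codon. They came from 7 genes and repeat some sites. Tomm7 (129 to 134 nt past the stop codon) and Tomm40 (216 to 222 nt) were each listed in 3 libraries. Over all families 117 peaks lay in the window, 70 in the 3′ UTR, 45 in the coding sequence and 5 in the 5′ UTR. The last exon held the centre of 90.3%, 85.5%, 75.5% and 83.3% of the placed member peaks, against 58.6% to 61.9% of all peaks.

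**Figure D4:**
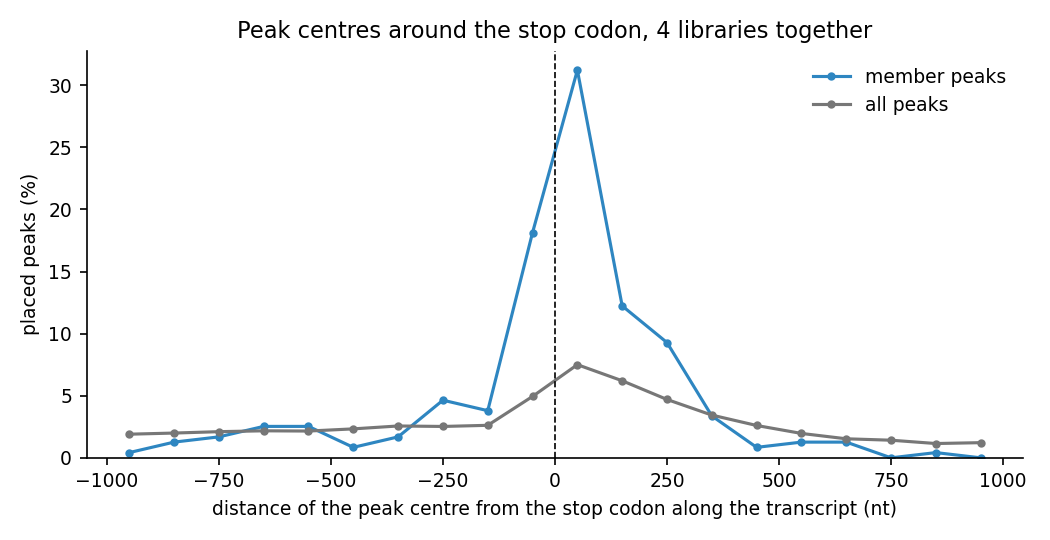
Share of placed peaks (%) in bins of 100 nt by the distance of the peak centre from the stop codon along the transcript, for member peaks (blue, 237 placed) and all peaks (grey, 35931 placed), with the 4 libraries pooled. Member peaks reach 31.2% in the first 100 nt past the stop codon, where all peaks reach 7.50%.

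GGAC was present in 200 nt of transcript at the peak centre in 58.1% and 61.3% of the placed member peaks in control MEFs, and 69.8% and 63.3% after starvation. Over all peaks it was present in 62.1%, 63.5%, 64.6% and 64.7%. The member shares lay on both sides of these. Neither the member shares nor those of all peaks overlapped between groups. With peaks of at least 4-fold only, the member shares did overlap, at 63.3% and 58.5% in control MEFs, and 69.4% and 61.8% after starvation. They also overlapped with filters on score or false discovery rate and with a window of 100 nt. Member transcripts held 3.92 GGAC per 1000 nt and all coding transcripts 4.09, both over 1 transcript per gene, and 3 of 201 member transcripts held none.

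The members differ from other genes in length. The median transcript of the 201 member genes with a coding model was 1107 nt, against 2539 nt for all 21899 coding genes, with a median longest exon of 485 nt against 1188 nt. Members with a peak had a median of 1280 nt and those without one 824 nt. Among transcripts under 1000 nt, 44.4% of 90 members had a peak, against 10.8% of all genes of that length, and from 1000 to under 2000 nt 73.1% of 67 members did, against 29.1%. Many coding genes are not expressed in MEFs, and the lists cannot tell these from expressed genes without a peak. Of the genes with a peak, those listed in all 4 libraries made up 2.50%, 6.12%, 16.7% and 0% of the members in the 4 length classes from short to long (1 of 40, 3 of 49, 3 of 18 and 0 of 12), against 10.1%, 15.0%, 24.4% and 44.2% of all genes. Recurrence was lower in the members in each class, and the classes rest on few member genes.

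**Figure D5:**
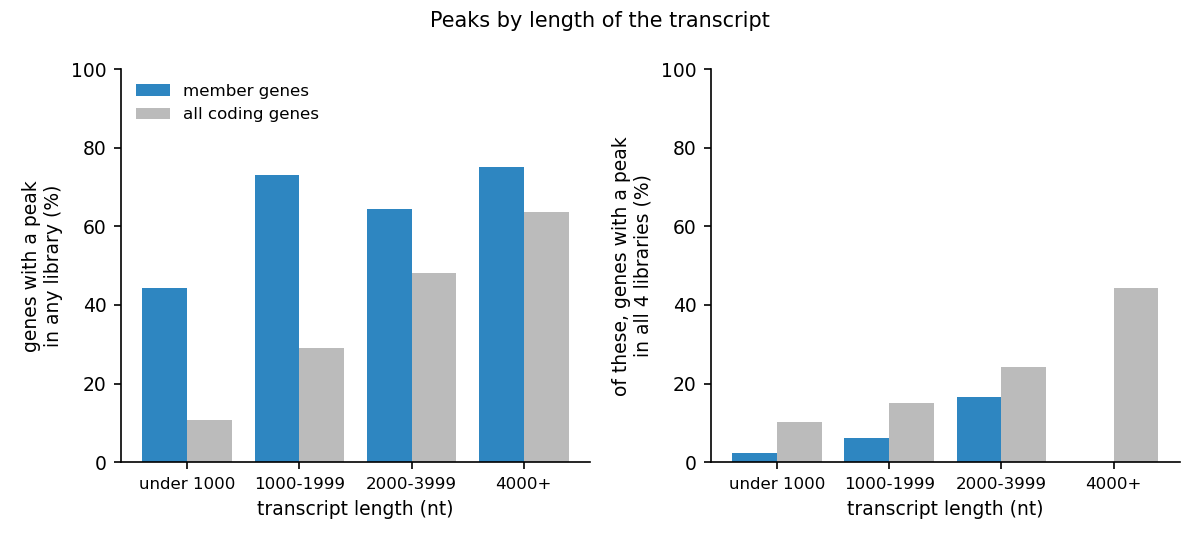
Bars of the share (%) of genes with a peak in any of the 4 libraries (left) and, of these, the share with a peak in all 4 (right), by transcript length class in nt, for member genes (blue) and all coding genes (grey). The blue bars are the higher ones on the left in every class, most of all under 1000 nt (44.4% against 10.8%), and the lower ones on the right, with 0% against 44.2% at 4000 nt and over.

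Other genes of the same pathways, which the names above do not cover, were taken from 6 lists of 96 genes in all. A peak in any of the libraries was listed for 64 of them, and 14 of the 64 (21.9%) had one in all 4, a share between that of the member names and that of all names. Mitochondrial transcription, RNA handling and translation had peaks on 20 of 25 genes, with Tfam, Mterf4 and Mtif3 in all 4 libraries. Tfam, which packages and transcribes mitochondrial DNA, had 69.3 and 77.8 in control MEFs, and 64.5 and 55.0 after starvation, above each of the folds of the member genes found in all 4. Complex II and its assembly factors had peaks on 7 of 8 genes, of which Sdhaf2 was in all 4 libraries. Carriers of the chain had them on 4 of 8 (Etfdh and Slc25a4 in all 4), assembly factors of other names on 16 of 27 (Acad9, Tmem126b and Cmc2), import and sorting genes of other names on 10 of 18 (Hspa9, Gfer and Immt), and regulators of mitochondrial biogenesis on 7 of 10 (Nrf1 and Gabpb1).

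Nrf1, a transcription factor for many nuclear-encoded respiratory genes, had, as its strongest peak at any place, 35.2 and 31.2 in control MEFs, and 30.1 and 118 after starvation, which overlapped. No peak lay on the mitochondrial chromosome in any of the lists, which the authors restricted to peaks over mRNA exons.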

How the data were processed

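Per the labels and methods, polyadenylated RNA of 8 MEF samples (2 replicates of control and starved IP and input) was sequenced. The authors trimmed reads, aligned them to mm10 with HISAT2 2.0.4, called peaks per IP library against its input with MACS2, and kept peaks over mRNA exons. The column names are those of an earlier MACS, so the version is uncertain. The fold enrichment, as deposited, is the ratio of IP over local input and so depends on the input of that library. The peak score given by the authors is minus 10 times log10 of the p-value. The authors' false discovery rate is a percent. A deposited table of the authors' own comparison (fold change, p-value, direction) was not used. Depth is unknown.

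Samples were grouped by title. Members and lists were chosen with earlier results of these data known. Named were the members in all 4 libraries, regions in both libraries of 1 group only, shared regions without overlap, the 5 strongest unrepeated regions and the 3 genes with most peaks. Peaks sharing 1 bp were merged. Centres were placed on GENCODE M21 coding transcripts (longest coding sequence first), and coding genes were those of RefSeq GRCm38.p6. Groups were compared over the 4 libraries by two-sided exact permutation. Python 3.11.15, pandas 2.3.3 and scipy 1.17.1 were used, with steps tested on simulated data. Alternatives were filters on fold, score and rate, equal list lengths, assignment by exon, other windows and overlaps, and leaving out libraries. 0 columns of per-sample values were unmapped.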

Additional observations from a re-analysis of the deposited data

How the results depend on the processing

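Differences are starved minus control means of the library values. Beside leaving out a library, 73 alternative values were computed: 63 kept their direction or stayed within 1.5 times, 9 turned and 1 moved. With folds of at least 4, the difference in member genes was 1.0, in the share of all peaks 0.0138 (percent) and in the member median relative to all peaks -0.11 (log2), and 7 starved-only regions were found (5.26% of member regions, against 3.36% of all regions). With scores of at least 100 the relative median differed by -0.059. With a false discovery rate under 20%, peaks and genes both differed by 7.5 and the share by 0.0472. With equal list lengths, genes differed by 0.5 and the relative median by -0.010. The causes were not tested. The median log2 fold, the share at a score of 3100 or more, the stop codon share and the GGAC share turned under none of the alternatives run. For the median log2 fold and the GGAC share, though, groups that did not overlap in the main setting overlapped under several of them, as given above.

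Without 1 library in turn, differences ran from -11.0 to -5.0 for peaks, -9.5 to -0.5 for genes, -0.0968 to 0.0202 for the share (positive without starved replicate 1), 0.27 to 0.59 for the median log2 fold, 0.00 to 0.34 for the relative median, 6.44 to 13.5 for the percent at a score of 3100 or more, -8.22 to -1.61 for the stop codon percent and 3.66 to 10.1 for the GGAC percent. Region counts then need fewer libraries and ran from 7 to 27 (starved only) and 17 to 32 (control only). Leaving out control replicate 1, control replicate 2, starved replicate 1 and starved replicate 2, the starved-only shares of member regions were 5.56%, 7.69%, 20.9% and 17.7%, against 7.36%, 6.85%, 18.5% and 19.9% of all regions, and the control-only shares 21.4%, 24.6%, 13.2% and 15.3%, against 22.4%, 22.3%, 9.02% and 7.97%. These, the addition of Timm29, Mrpl58 and Ndufaf8, listed under older names, and the use of placed peaks only, were chosen after seeing the data.

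The labels give both groups the replicate numbers 1 and 2. With the replicate block, the differences were the same (-8.0 peaks and 0.43 in median log2 fold) with 0.5 as the smallest exact p. The methods state no replicate block, so the numbers were not taken as pairs. Over 2257 shared regions the replicate deviations of the groups had a correlation of -0.02. Because each fold depends on the input of its own library, this value cannot decide whether the replicates were paired. Without reads, depth limits cannot be given.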

Other observations

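Of the 30 member genes with a peak in 3 libraries, chosen here after their values were seen, Mrpl47 had 3 separate regions, each in a single library: at the stop codon in control replicate 2 (18.0), in the 3′ UTR in starved replicate 1 (65.5) and in the 5′ UTR in starved replicate 2 (25.8). Mrps28 had, in a single region at the stop codon, 58.7 and 8.09 in control and 24.6 in starved replicate 2. Timmdc1, an assembly factor of complex I despite its name, had in a single region of the 3′ UTR 3.74 in control replicate 1 and 20.6 and 23.4 in the starved libraries. Timm29, an import gene listed under an older name and so outside the naming rule, had peaks in all 4 libraries, the strongest per library at 5.69 and 11.4 in control MEFs, and 5.29 and 7.74 after starvation.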
